A study of Mus musculus with 8 samples.

Results

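The Cdx2 null posterior embryo was followed from 4/5 to 7/8 somites in the channel of each array that carried the mutant RNA. Of the 16 channels on the 8 arrays of the series, 8 carried it, 4 at each stage, and they were chosen by the genotype that the labels give to each dye. The groups were Cdx2 null mutant embryos of the strain C57Bl6J/CBA at 4/5 somites, the same at 7/8 somites, and wild type embryos of that strain at each stage in the other channel of the same arrays. Tissue from behind the youngest somite to the root of the allantois was taken, and 20 embryos gave 1 pool of RNA per genotype and stage. The kind of null allele, the age in days and the way the mutants were carried to these stages were not stated in the sources used here. Because each stage was 1 pool hybridized 4 times, the arrays are technical repeats. The SDs below measure that repeat error alone, and no test between stages is possible.

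Cdx2 encodes a caudal-type homeodomain transcription factor that, with Cdx1 and Cdx4, acts in the growth zone at the tail end of the embryo. Progenitors there lay down the trunk and tail from head to tail, held by Wnt and FGF signals, while Hox genes of successive groups start up in turn. As cells leave, they become neural tube or presomitic mesoderm, and the latter segments into somites. Retinoic acid from the somites opposes FGF at the border. The tissue also holds hindgut and visceral endoderm, vessels and the first blood cells.

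A value below is a log2 normalized intensity, and a change is the mean at 7/8 somites minus the mean at 4/5 somites, given with the SD of the 4 differences between arrays matched by slide and dye (n = 4). A gene is said to have risen or fallen where the means of 4 arrays differed at least 2-fold, a log2 change of 1, and the array values of the stages did not overlap. A looser size of 1.5-fold with the same lack of overlap is named where it is used. Dim probes are understated, because an offset of 50 was added before the log. Levels of different genes are not compared. In the null channels the share of probes well above background ran from 46.54% to 58.95% over the arrays. Each slide held both stages and both dyes, but the position of an array on its slide went with the stage, so that position and stage cannot be told apart.

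Between the 2 stages 20 of 14934 measured genes rose at least 2-fold in the null pools (0.134%) and 25 fell (0.167%). At 1.5-fold the counts were 140 (0.937%) and 144 (0.964%). The median change over all measured genes was 0.00 and the SD of their changes 0.23, against a median SD of 0.13 over the 4 matched pairs of a gene. Across genes, the changes on slide 1 and on slide 2 correlated with r = 0.681, which describes repeat hybridization of the same pools and not independent embryos. Of the 45, 5 rested on 1 array whose spot was far dimmer in both channels than on the other 3 of its stage. These, singled out after their values were seen, were Rpl4, Cdkn2aipnl, Htra1, Tox4 and an expressed sequence without a symbol. With the median of the arrays in place of the mean their changes were 0.49, 0.25, -0.46, -0.20 and -0.23, and without these 5 there were 18 rises and 22 falls.

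The largest rises were those of embryonic globin genes, the products of primitive red cells. Hbb-bh1, the embryonic beta-type globin beta-H1 (chromosome 7, 110990327 to 110990386, build mm9 as in the array files), had values of 7.81, 7.98, 7.98 and 8.00 on the 4 arrays at 4/5 somites and of 11.76, 11.98, 11.78 and 11.95 at 7/8 somites. The stages lay far apart, with a change of 3.92 ± 0.08 or 15.2-fold, and a second probe gave 3.89. Hba-x, the embryonic alpha-type globin zeta (chromosome 11, 32177668 to 32177727), was at 6.47, 6.28, 6.40 and 6.32 and then at 8.69, 8.96, 8.93 and 9.12. It was not well above background on any array at 4/5 somites, so that its rise was at least 5.68-fold (against the dimmest signal above background on each array). Hbb-y, the other embryonic beta-type globin, rose by 1.06 ± 0.10. Hba-a1, an adult alpha globin whose near-identical copy Hba-a2 may share its signal, changed by 0.80 ± 0.12 and passed 1.5-fold only. All 4 had changes of about the same size in wild type: 3.58 for Hbb-bh1, 2.48 for Hba-x, 1.13 for Hbb-y and 0.69 for Hba-a1. Of 22 erythroid genes listed, 10 were measured in the null pools. Of these 3 rose 2-fold and 4 passed 1.5-fold upward, against 0.134% and 0.937% of all measured genes. The median change of the 10 was 0.19. Gata1, a factor of red cells, was not among those measured, and Klf1 was left out in the null pools as dim. Alas2, the first enzyme of haem synthesis in red cells, changed by -0.07 ± 0.13, Slc4a1, the red cell anion exchanger, by 0.14 ± 0.23, and Car2 by -0.40 ± 0.21. In bulk tissue more cells of a type and more RNA per cell cannot be told apart.

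The promoters of Hba-x, Hbb-y and Hba-a1, all with positive changes, show the sequence at their starts. Given are the 150 bases before the start in RefSeq (GRCm38.p6), written on the gene's strand, and Hbb-bh1 was not among those matched. AGATAA, a form of the site of GATA factors, and CCACACCC, a full CACCC box bound by Klf factors, were searched first on both strands and were in none of the 3. The looser letters TGATAA and CCACCC, marked by capitals, were chosen after that and with the sequences in view, so that their presence supports nothing.
Hba-x (chr11:32276450-32276599, plus strand): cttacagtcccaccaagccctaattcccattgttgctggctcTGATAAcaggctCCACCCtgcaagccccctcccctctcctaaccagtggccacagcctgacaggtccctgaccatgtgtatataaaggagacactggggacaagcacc
Hbb-y (chr7:103853208-103853357, minus strand): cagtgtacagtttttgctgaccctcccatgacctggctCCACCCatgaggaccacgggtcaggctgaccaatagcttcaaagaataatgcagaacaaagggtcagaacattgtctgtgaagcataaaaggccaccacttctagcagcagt
Hba-a1 (chr11:32283522-32283671, plus strand): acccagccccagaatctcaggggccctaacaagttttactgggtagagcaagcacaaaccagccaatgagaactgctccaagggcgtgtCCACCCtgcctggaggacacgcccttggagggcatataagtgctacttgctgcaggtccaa
All 3 held CCACCC, 96, 112 and 61 bases before the start, and Hba-x also held TGATAA 108 bases before it. Of 27025 promoters of this length, 19.3% held CCACCC, 4.61% TGATAA, 5.76% AGATAA and 2.17% CCACACCC. These matches are descriptions of the letters and not of binding.

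**Figure D1:**
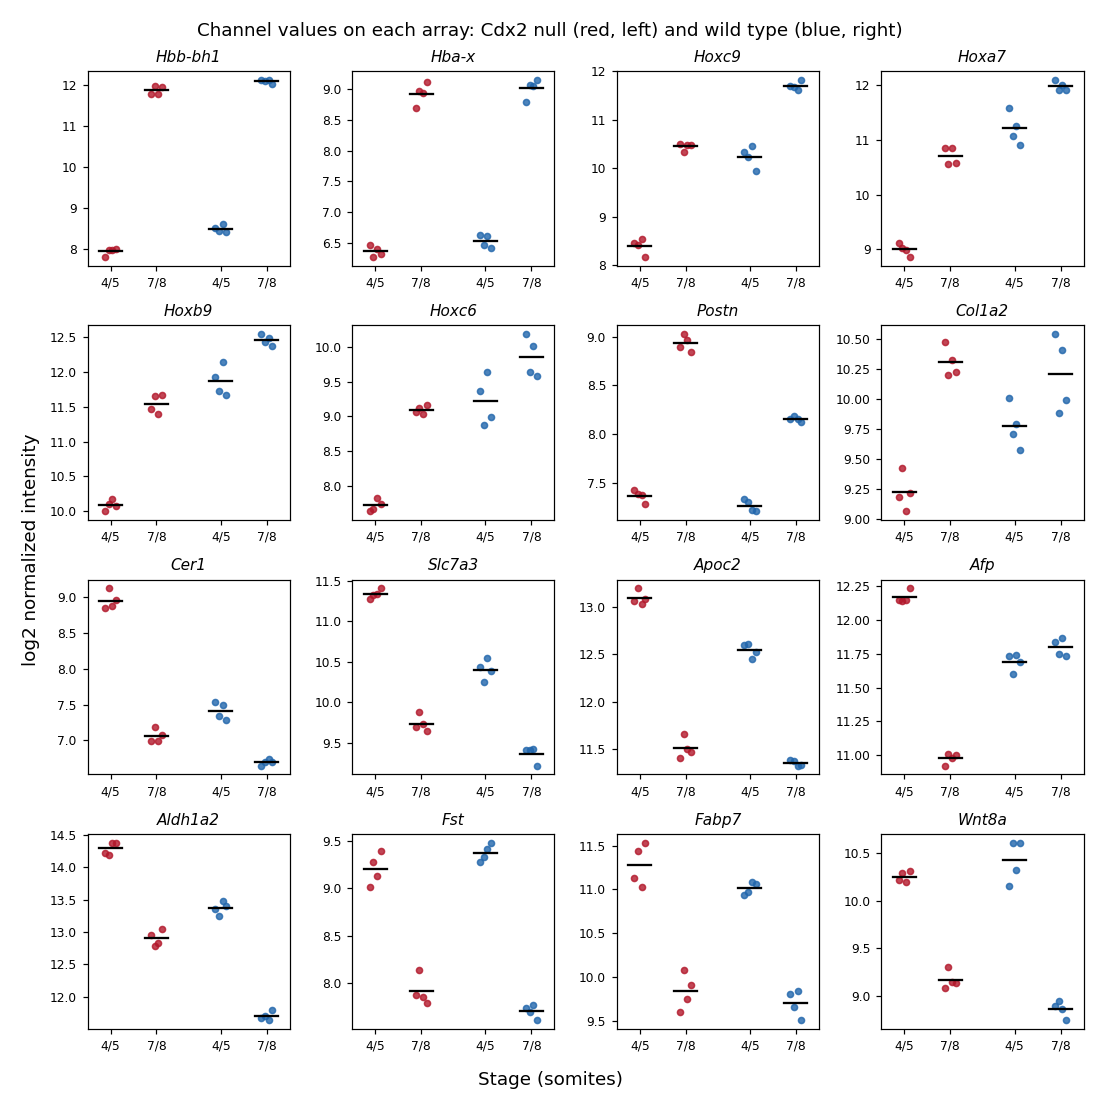
Log2 normalized intensity on each of 4 arrays per stage (dots, means as bars) for 16 genes, with Cdx2 null in red and wild type in blue. The genes were picked from those past the 2-fold rule in the null pools, which itself requires that the stages do not overlap there. The mean of Hbb-bh1 goes from 7.94 to 11.87.

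Hox genes of the middle groups rose next most. Of the 15 genes of groups 5 to 9 on the list, 14 were measured, and 5 rose 2-fold while none fell, against the background of 0.134%. At 1.5-fold 7 passed upward, against 0.937%. Hoxc9 (chromosome 15, 102814735 to 102814794) stood at 8.46, 8.42, 8.54 and 8.17 at 4/5 somites and at 10.51, 10.34, 10.48 and 10.47 at 7/8 somites, a change of 2.05 ± 0.18 or 4.14-fold. Hoxa7 (chromosome 6, 52165626 to 52165685) went from 9.12, 9.02, 9.0 and 8.87 to 10.86, 10.56, 10.84 and 10.57, a change of 1.71 ± 0.13. Hoxc6 went from 7.64, 7.68, 7.83 and 7.75 to 9.07, 9.12, 9.03 and 9.16, a change of 1.37 ± 0.12. That no array of one stage reached the values of the other is part of the rule for a rise. Hoxa9 rose by 1.07 ± 0.21. Hoxb9 rose by 1.45 ± 0.17 on its brighter probe, but a second probe of the gene changed by -0.63, so that its direction depends on the probe. Hoxd8 (0.67 ± 0.14) and Hoxd9 (0.63 ± 0.15) passed 1.5-fold alone. The other 7 lay between -0.31 for Hoxa5 and 0.31 for Hoxc8, among them Hoxb5, Hoxb6, Hoxb7 and Hoxb8 of the b cluster. The median of the 14 was 0.47 in the null pools and 0.20 in wild type.

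For 4 of these genes the stage change was also at least 1.5-fold larger in the null pools than in wild type without overlap of arrays: Hoxa7 by 0.93, Hoxb9 by 0.86, Hoxc6 by 0.74 and Hoxc9 by 0.59. For Hoxb9 this too depends on the probe, since the second one changed by -0.63 in the null pools and by 0.56 in wild type. In all, 93 of 15490 genes met that rule (0.6%) and 63 met it in the other direction (0.407%). In wild type Hoxc9 went from 10.24 ± 0.22 to 11.70 ± 0.09, Hoxa7 from 11.21 ± 0.29 to 11.98 ± 0.09 and Hoxc6 from 9.22 ± 0.35 to 9.85 ± 0.29 (mean ± SD, n = 4 arrays). The null level at 7/8 somites overlapped the wild type level at 4/5 somites for Hoxc9, Hoxc6 and Hoxa9. It lay below that level for Hoxa7 and, on its brighter probe, for Hoxb9. The difference between these levels was 0.21 for Hoxc9, -0.12 for Hoxc6 and -0.02 for Hoxa9, with arrays overlapping. It was -0.50 for Hoxa7 and -0.32 for Hoxb9, with arrays apart. These levels come from different arrays and rest on the normalization between arrays.

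Among the 12 genes of groups 1 to 4, none passed 2-fold. Their median change was 0.18. Hoxb2 changed by -0.00 ± 0.20 and Hoxa4 by 0.52 ± 0.80, the latter with 1 dark array. Of groups 10 to 13 only Hoxa10, Hoxa11 and Hoxd10 were measured in the null pools, with changes of 0.04 ± 0.03, 0.03 ± 0.10 and 0.18 ± 0.28, whereas Hoxa10 changed by 0.34 ± 0.07 in wild type. Of the promoters of Hoxa7 and Hoxa9, neither held TTTATG or TTTATT, forms of the Cdx site found in 6.46% and 10.6% of promoters, in the 150 bases searched.

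**Figure D2:**
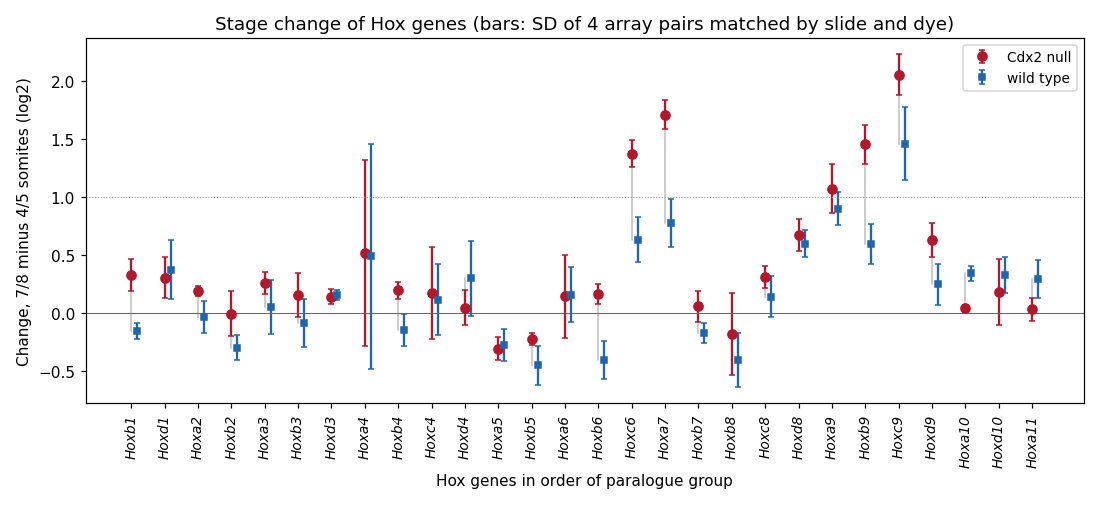
Stage change (log2) of 28 measured Hox genes in order of group, in the null pools (red circles) and wild type (blue squares), with the SD of 4 matched array pairs. Hoxc6, Hoxa7, Hoxa9, Hoxb9 and Hoxc9 lie above 1 in the null pools.

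The Cdx genes themselves did not pass 1.5-fold in the null pools. Cdx2 stood at 10.18, 10.39, 10.33 and 10.24 at 4/5 somites and at 9.89, 9.94, 9.81 and 9.74 at 7/8 somites, a change of -0.44 ± 0.10, on a probe (chromosome 5, 148112547 to 148112606) whose place relative to the mutated part was not stated. The null channels were below those of wild type at both stages, where Cdx2 was at 11.51 ± 0.11 and then at 11.39 ± 0.09. Cdx1 changed by -0.34 ± 0.12 in the null pools, from 9.68 ± 0.05 to 9.34 ± 0.09, but fell at least 2-fold in wild type (-1.10 ± 0.17). Cdx4 changed by 0.58 ± 0.04, just under 1.5-fold, against 0.19 ± 0.13 in wild type. Over the 3 genes the median was -0.34.

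Genes of the FGF pathway mostly had positive changes in the null pools, each of small size. Of 14 measured, 12 had positive changes and the median was 0.32, whereas it was -0.06 in wild type. No gene passed 2-fold, while 3 passed 1.5-fold upward and 1 downward, against 0.937% and 0.964% of all measured genes. The ligand Fgf8, a growth zone signal, went from 12.47, 12.42, 12.60 and 12.43 to 13.24, 13.06, 13.18 and 13.08, a change of 0.66 ± 0.08, and its second probe gave 0.62. The ligand Fgf17 changed by 0.71 ± 0.13, and Spry1, a feedback inhibitor of the pathway, by 0.63 ± 0.10. In wild type the same genes changed by 0.07, 0.26 and 0.25. Etv4, a transcription factor induced by FGF, changed by 0.57 ± 0.19 in the null pools and by -0.24 ± 0.18 in wild type, and the difference of 0.81 met the 1.5-fold rule, as did that of Fgf15 (0.64). Fgfbp3, a secreted FGF-binding protein, fell by the 1.5-fold rule in the null pools (-0.71 ± 0.11).

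Of the Wnt ligands and regulators, 1 of 23 measured genes passed, downward, against 0.167% of all measured genes. Wnt8a, a ligand of the early growth zone, fell from 10.21, 10.29, 10.19 and 10.31 to 9.08, 9.30, 9.15 and 9.13, a change of -1.09 ± 0.08, with -1.55 ± 0.25 in wild type. Wnt3a changed by -0.07 ± 0.14 and the pathway targets Axin2 and Lef1 by 0.16 and 0.15. A second Lef1 probe changed by 0.53 in the null pools and by 0.24 in wild type. By the brightest probe of each gene, the targets Apcdd1 (0.58) and Notum (0.55), both inhibitors of the pathway, had the largest positive values, below 1.5-fold. A second Apcdd1 probe gave 0.16, so that the order of Apcdd1 and Lef1 depends on the probe. No gene of the BMP list passed. Its median was 0.12, and Msx1, a target of BMP, changed by 0.37 ± 0.22 in the null pools and by -0.41 ± 0.22 in wild type, a difference past 1.5-fold (0.78), although a second probe gave 0.20 and 0.04.

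Of 7 measured genes of Nodal signals and their inhibitors, 2 fell 2-fold against the background of 0.167% and 3 passed 1.5-fold downward against 0.964%. In all 5 had negative changes and 2 had small positive ones, with a median of -0.52. Cer1, a secreted inhibitor of Nodal, BMP and Wnt ligands (chromosome 4, 82527731 to 82527790), was the largest fall of the null pools. It stood at 8.85, 9.12, 8.87 and 8.95 and then at 6.99, 7.19, 6.99 and 7.07, a change of -1.89 ± 0.03 or 3.70-fold. In wild type it changed by -0.72 ± 0.14, from 7.41 ± 0.12 to 6.70 ± 0.04, so that the null pools began higher, and the fall was larger by the 2-fold rule (-1.17). At 7/8 somites 2 of 4 wild type arrays were well above background, which limits the wild type fall and this difference. Fst, the activin inhibitor follistatin, fell by 1.29 from 9.02, 9.28, 9.13 and 9.39 to 7.88, 8.14, 7.85 and 7.79. Nodal, the ligand itself, passed 1.5-fold downward in the null pools (-0.81 ± 0.11) and 2-fold in wild type (-1.46 ± 0.16). Lefty1, a feedback inhibitor of Nodal, changed by -0.52 ± 0.11 in the null pools and by -1.48 ± 0.12 in wild type. At 7/8 somites only 1 array of 4 was well above background in either genotype, so that the sizes of its falls are not compared. The fall of Nodal was smaller in the null pools by the 1.5-fold rule (0.65).

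Axial progenitor genes split between the directions. T (Brachyury), the defining factor of the primitive streak and tail bud, went from 10.83 ± 0.06 to 11.12 ± 0.06, a change of 0.29 ± 0.04 against -0.26 ± 0.04 in wild type. Tbx6, the factor of nascent mesoderm, changed by 0.24 ± 0.16 against -0.28 ± 0.20. Neither passed 1.5-fold, nor did Sox2, Nkx1-2 or Cyp26a1. Of 19 measured genes on the list Epha1, an ephrin receptor of the streak, rose 2-fold, from 8.84, 8.52, 8.74 and 8.62 to 9.80, 9.5, 9.92 and 9.65 (1.04 ± 0.10). Wnt8a fell, as given above, and Pou5f1, the pluripotency factor Oct4, passed 1.5-fold downward (-0.64 ± 0.04). Of the 19, 1 rose and 1 fell 2-fold, against 0.134% and 0.167% of all measured genes. At 1.5-fold 3 passed upward and 2 downward, against 0.937% and 0.964%. The median was 0.16 in the null pools and -0.26 in wild type. The homeobox genes Mixl1 and Evx1, both of the streak, had higher changes in the null pools by the 1.5-fold rule, with differences of 0.60 and 0.66. Epha1 met it as well (0.77), so that 3 of the list did, against 0.6% of all genes.

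Somite genes had negative changes in the null pools, and apart from Aldh1a2 their changes in wild type were smaller or of the opposite sign. All 7 measured genes of the list had negative changes, with a median of -0.37, while the median in wild type was 0.07. Aldh1a2, the enzyme that makes retinoic acid in somites, fell from 14.22, 14.20, 14.38 and 14.38 to 12.96, 12.79, 12.84 and 13.05, a change of -1.39 ± 0.12, and by -1.67 ± 0.12 in wild type. Meox1, a homeobox gene of the early somite, went from 10.63, 10.59, 10.60 and 10.72 to 9.91, 9.78, 9.80 and 10.04 (-0.75 ± 0.06), and a second probe gave -0.33. Foxc2, a forkhead gene of somite and presomitic mesoderm, went from 10.29, 10.22, 10.28 and 10.45 to 9.59, 9.62, 9.79 and 9.74 (-0.62 ± 0.11). Both passed 1.5-fold downward. With Aldh1a2, 3 of the 7 did and 1 fell 2-fold, against 0.964% and 0.167% of all measured genes. Tcf15, the paraxis factor of epithelial somites, changed by -0.37 ± 0.18. In wild type Meox1, Foxc2 and Tcf15 changed by -0.15, 0.17 and 0.51. The differences of -0.60, -0.80 and -0.89 met the 1.5-fold rule, as did 0.407% of all genes in that direction. The second Meox1 probe, however, changed by -0.08 in wild type. At 4/5 somites these genes were higher in the null pools than in wild type (Meox1 10.64 ± 0.06 against 9.42 ± 0.05, Foxc2 10.31 ± 0.10 against 9.42 ± 0.05), and at 7/8 somites less so. How much somite tissue each dissection took along was not tested. Pax3, Pax1, Myf5 and Meox2 were not among the measured genes.

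Of 17 measured genes of presomitic mesoderm and the segmentation clock, 14 had positive changes and the median was 0.21. The others were Cer1, Mesp1 and Pcdh8. Mesp1, which marks the front of the tissue, changed by -0.96 ± 0.07 (-1.18 in wild type), and Pcdh8, a protocadherin of forming somite borders, by -0.78 ± 0.10 (0.17 in wild type), both past 1.5-fold downward and neither past 2-fold. The difference of Pcdh8 was -0.95. Genes of the Notch clock had smaller positive values, such as Hes7 (0.40 ± 0.11), Lfng (0.20 ± 0.13), Dll1 (0.12 ± 0.03) and Dll3 (0.38 ± 0.12). None of these passed 1.5-fold. Hes5, a Notch target also of neural tube, passed it (0.87 ± 0.12). Of the 17, 1 passed 1.5-fold upward and 3 downward, against 0.937% and 0.964% of all measured genes. Cer1 alone passed 2-fold, downward, against 0.167%.

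Retinoic acid genes other than Aldh1a2 changed little. The receptor Rarb, a direct target, changed by -0.47 ± 0.07, the degrading enzyme Cyp26a1 by 0.40 ± 0.12 and the binding protein Crabp2 by -0.32 ± 0.15, none past 1.5-fold, and the median of 13 was -0.19. In the neural tube list of 16 measured genes the median was 0.07, and Fabp7 fell 2-fold. Fabp7, a brain lipid-binding protein, went from 11.12, 11.44, 11.03 and 11.53 to 9.60, 10.08, 9.75 and 9.91 (-1.45 ± 0.16), and it changed by -1.31 in wild type. Sox1, Pax6, Pax7 and Neurog2 stayed under 1.5-fold, with values of 0.09, -0.32, 0.11 and 0.05. Nefl, the light neurofilament chain of neurons, fell by 1.24 (SD 0.12) and changed by -0.86 in wild type, without passing 2-fold there.

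**Figure D3:**
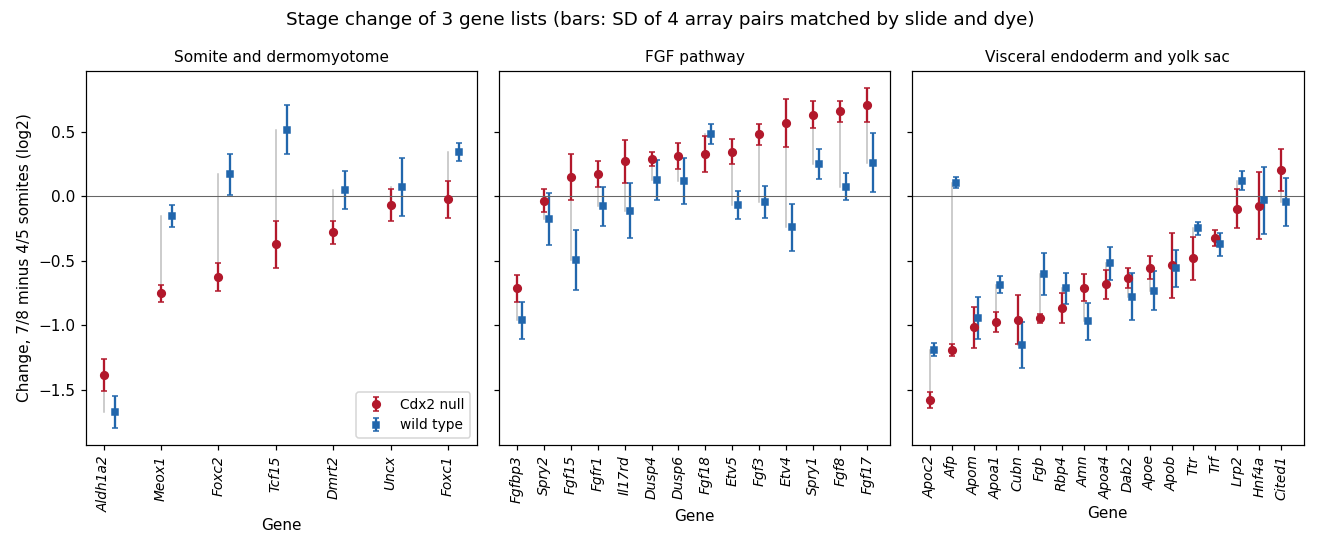
Stage change (log2, SD of 4 matched array pairs) of the measured genes of 3 lists in the null pools (red) and wild type (blue). The 7 somite genes lie below 0 in the null pools, 12 of 14 FGF genes above 0, and 16 of 17 visceral endoderm genes below 0.

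Visceral endoderm and yolk sac genes had mostly negative changes. This epithelium absorbs and secretes serum proteins before the liver forms. Of 17 measured genes 16 had negative changes, 3 fell 2-fold against the background of 0.167% and 10 passed 1.5-fold downward against 0.964%, with a median of -0.68. Apoc2, an apolipoprotein (chromosome 7, 20257027 to 20257086), went from 13.06, 13.19, 13.03 and 13.08 to 11.41, 11.66, 11.51 and 11.47, a change of -1.58 ± 0.06 or 2.99-fold. Apom, another apolipoprotein, went from 12.44, 12.53, 12.59 and 12.68 to 11.53, 11.69, 11.48 and 11.49 (-1.01 ± 0.16). Afp, the fetal serum protein alpha-fetoprotein (chromosome 5, 90937781 to 90937840), went from 12.15, 12.14, 12.15 and 12.24 to 10.92, 11.00, 10.98 and 11.00, a change of -1.19 ± 0.05. Beyond these, Apoa1 changed by -0.97 ± 0.08, the receptor Cubn, which takes up vitamin B12 and proteins, by -0.96 ± 0.19, and Rbp4, the carrier of retinol, by -0.87 ± 0.12, all past 1.5-fold. Slc2a2, the glucose carrier of liver and endoderm, changed by -1.25 ± 0.16, although a second probe gave -0.22.

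In wild type the list's median was -0.58 and 9 of 18 measured genes passed 1.5-fold downward, against 0.816% of all. Apoc2 changed there by -1.19 ± 0.05, Apom by -0.95 ± 0.16 and Cubn by -1.15 ± 0.18. Afp departed from the list, since in wild type it went from 11.69 ± 0.07 to 11.80 ± 0.07 (0.11 ± 0.04) and its stage change in the null pools was lower by the 2-fold rule (-1.30). How much visceral endoderm each pool held was not tested. The promoters of these 3 genes are shown for comparison (150 bases before the RefSeq start, GRCm38.p6), with GTTAAT, a part of the site of Hnf1 factors, in capitals.
Afp (chr5:90490564-90490713, plus strand): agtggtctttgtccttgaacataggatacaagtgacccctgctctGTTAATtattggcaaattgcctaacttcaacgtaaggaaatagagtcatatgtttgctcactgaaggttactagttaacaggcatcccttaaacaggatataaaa
Apoc2 (chr7:19677942-19678091, minus strand): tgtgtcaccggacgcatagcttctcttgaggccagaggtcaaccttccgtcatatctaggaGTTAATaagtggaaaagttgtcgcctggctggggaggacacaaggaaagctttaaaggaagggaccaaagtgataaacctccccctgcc
Apom (chr17:35131802-35131951, minus strand): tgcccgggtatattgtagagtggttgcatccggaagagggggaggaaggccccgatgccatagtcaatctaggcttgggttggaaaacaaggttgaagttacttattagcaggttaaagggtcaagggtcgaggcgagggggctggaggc
GTTAAT was found in Afp and Apoc2, 105 and 89 bases before the start, and in 3.76% of the 27025 promoters. AAGTCCA, a part of the Hnf4 site present in 1.88% of promoters, was in none of the 3.

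The gut endoderm list, which shares Ttr and Hnf4a with the list above, did not move as one. Of 20 measured genes none passed 2-fold, and the median was -0.06. At 1.5-fold 3 passed upward and 2 downward, against 0.937% and 0.964% of all measured genes. The keratin Krt19 (0.74 ± 0.10), the claudin Cldn7 (0.65 ± 0.12) and Nepn, a proteoglycan of the gut tube (0.73 ± 0.13), passed 1.5-fold upward. Trh, the thyrotropin-releasing hormone precursor, went from 10.12, 10.03, 10.12 and 10.09 to 9.18, 9.20, 9.11 and 9.15 (-0.93 ± 0.07), against -1.34 ± 0.16 in wild type, and Spink1, a trypsin inhibitor, changed by -0.68 ± 0.11.

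Extracellular matrix genes had positive changes in 23 of 25 measured genes, with a median of 0.37 in the null pools and 0.12 in wild type. Of these 1 passed 2-fold and 4 passed 1.5-fold upward in the null pools, against 0.134% and 0.937% of all measured genes. Col1a2, a chain of type I collagen, went from 9.19, 9.43, 9.07 and 9.22 to 10.48, 10.20, 10.33 and 10.23 (1.08 ± 0.24), its partner Col1a1 changed by 0.68 ± 0.04, and the basement membrane chain Col4a2 by 0.71 ± 0.13. Fn1, fibronectin, changed by 0.66 ± 0.04 in the null pools and by -0.09 ± 0.06 in wild type. The differences of Col1a2 (0.65) and Fn1 (0.76) met the 1.5-fold rule, and other Fn1 probes changed by 0.64 and 0.22 in the null pools and by -0.24 and -0.02 in wild type. Postn, the matrix protein periostin, went from 7.43, 7.39, 7.38 and 7.28 to 8.89, 9.03, 8.96 and 8.84 (1.56 ± 0.07 or 2.96-fold), the largest rise outside globins and Hox genes that did not rest on 1 array, and by 0.89 ± 0.05 in wild type. It belongs to the list of allantois and extraembryonic mesoderm, of which 14 genes were measured and 12 had positive changes. Of the 14, Postn and Lum passed 1.5-fold upward, against 0.937% of all measured genes. Igfbp4, a secreted binder of insulin-like growth factors, rose from 7.77, 7.23, 7.43 and 7.28 to 8.74, 8.66, 8.82 and 8.49 (1.25 ± 0.21), and a second probe gave 0.63.

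Endothelial genes had the higher median in wild type. Of 18 measured genes in the null pools, 2 passed 1.5-fold, the sialomucin Emcn (0.96 ± 0.18) and the tight junction protein Cldn5 (0.61 ± 0.04), and the median was 0.05. Over all measured genes 0.937% passed upward in the null pools. In wild type 6 of 19 endothelial genes passed, against 0.73% of all, and the median was 0.46. The receptor Kdr, needed for vessel formation, changed by 0.01 ± 0.06 in the null pools and by 0.68 ± 0.08 in wild type, and Tal1, a factor of blood and vessel progenitors, by -0.25 ± 0.44 and 0.64 ± 0.47. For 4 genes, Kdr, Tal1, Etv2 and Sox7, the stage change was lower in the null pools by the 1.5-fold rule, with differences of -0.67, -0.89, -0.64 and -0.66. Over all genes 0.407% met that rule.

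Other rises and falls belonged to no large group. Bhlha9, a factor of limb and mesoderm, rose by 1.28 and Traf4, a signal adaptor, by 1.11, although a second Traf4 probe gave 0.19. Gar1, a protein of small nucleolar particles, went from 7.97, 7.91, 7.95 and 7.92 to 9.38, 9.28, 9.42 and 9.31 (1.42 ± 0.04). Ncl, nucleolin of the nucleolus, rose by 1.25 ± 0.19 on its brightest probe and by 1.27 on an overlapping one, while 2 probes elsewhere in the gene gave 0.02 and 0.10. Over 23 ribosome and nucleolus genes measured, Ncl and Rpl4 among them, the median was 0.04, and the next highest were Rpsa (0.35) and Polr1b (0.34), under 1.5-fold. Syt13, a synaptotagmin, rose by 1.09, more so in wild type (1.51). Slc7a3 and Slc7a8, both amino acid carriers, fell, with changes of -1.60 and -1.10, in Slc7a3 from 11.28, 11.32, 11.33 and 11.40 to 9.69, 9.88, 9.73 and 9.64. Gfra3, a receptor of the GDNF family, fell from 11.23 ± 0.14 to 10.03 ± 0.18, Sh3gl3, an endophilin, from 11.47 ± 0.16 to 10.33 ± 0.08, and Gabrg1, a GABA receptor subunit, from 9.32 ± 0.06 to 8.17 ± 0.03. Slc4a7, a bicarbonate carrier, fell by 1.09 on 1 probe while 2 others gave -0.03 and 0.08. Dynlrb2, a dynein chain of cilia, fell by 1.03, and 9 of 11 measured cilium genes had negative changes with a median of -0.19 (-0.34 in wild type). The remaining falls were 2010003K15Rik, Pla2g12b and a transcript without a symbol.

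Trophoblast genes were mixed, with prolactin family members upward. Prl4a1 went from 8.30, 8.62, 8.37 and 8.74 to 9.52, 9.84, 9.44 and 9.68 (1.12 ± 0.13), Prl2c5 changed by 0.91 ± 0.18 and Prl3d1 by 0.61 ± 0.12. In wild type they changed by 0.25, -0.28 and 0.22. These genes are products of placental giant cells or maternal decidua, and Prl2c5 is near-identical to other Prl2c genes, with which it may share signal. Tpbpa, Gcm1 and Prl2c2 were not measured. Of 11 measured genes 3 passed 1.5-fold upward and 1 downward, against 0.937% and 0.964% of all measured genes. The median of the 11 was -0.14. Rhox5, an X-linked homeobox gene, was the downward one (-0.81 ± 0.10). The part of such tissue in the pools was not tested. Xist, the RNA of the inactive X chromosome in female cells, changed by -0.59 ± 0.25 in the null pools, past 1.5-fold, and by -0.43 ± 0.19 in wild type. Eif2s3y, a gene of the Y chromosome, changed by 0.22 ± 0.11 in the null pools and by 0.66 ± 0.12 in wild type, past 1.5-fold there. Other Y genes did not pass in either genotype. Ddx3y changed by 0.00 ± 0.18 in the null pools and by 0.36 ± 0.14 in wild type, and Kdm5d by 0.14 ± 0.16 and 0.13 ± 0.10. The sexes of the pooled embryos were not stated in the sources used here, and their part in these results was not tested.

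Lists of dividing and household functions barely moved. No gene of 29 for cell cycle and replication passed 1.5-fold, with values between -0.34 for Rrm2 and 0.57 for Ccnd2 and a median of -0.08. No housekeeping gene passed, with a median of -0.01, and no glycolysis gene, with a median of 0.06. Of the p53 and stress list, Phlda3 passed 1.5-fold downward (-0.93 ± 0.15) and Bax upward (0.60 ± 0.06), and the median of 16 was -0.045. Imprinted genes had a median of 0.26 with 15 of 20 positive, among which Rian (0.72 ± 0.08) and Dlk1 (0.66 ± 0.18), both of one cluster, passed 1.5-fold, though a second Rian probe gave -0.11. Over all measured genes 0.937% passed 1.5-fold upward and 0.964% downward. Neural crest, lateral plate, surface ectoderm, germ cell, node, neuron and heart muscle lists had medians between -0.14 and 0.08. In those lists, besides genes already given, the muscle light chains Myl7 (-0.72 ± 0.14) and Myl2 (-0.67 ± 0.15) passed 1.5-fold downward.

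**Figure D4:**
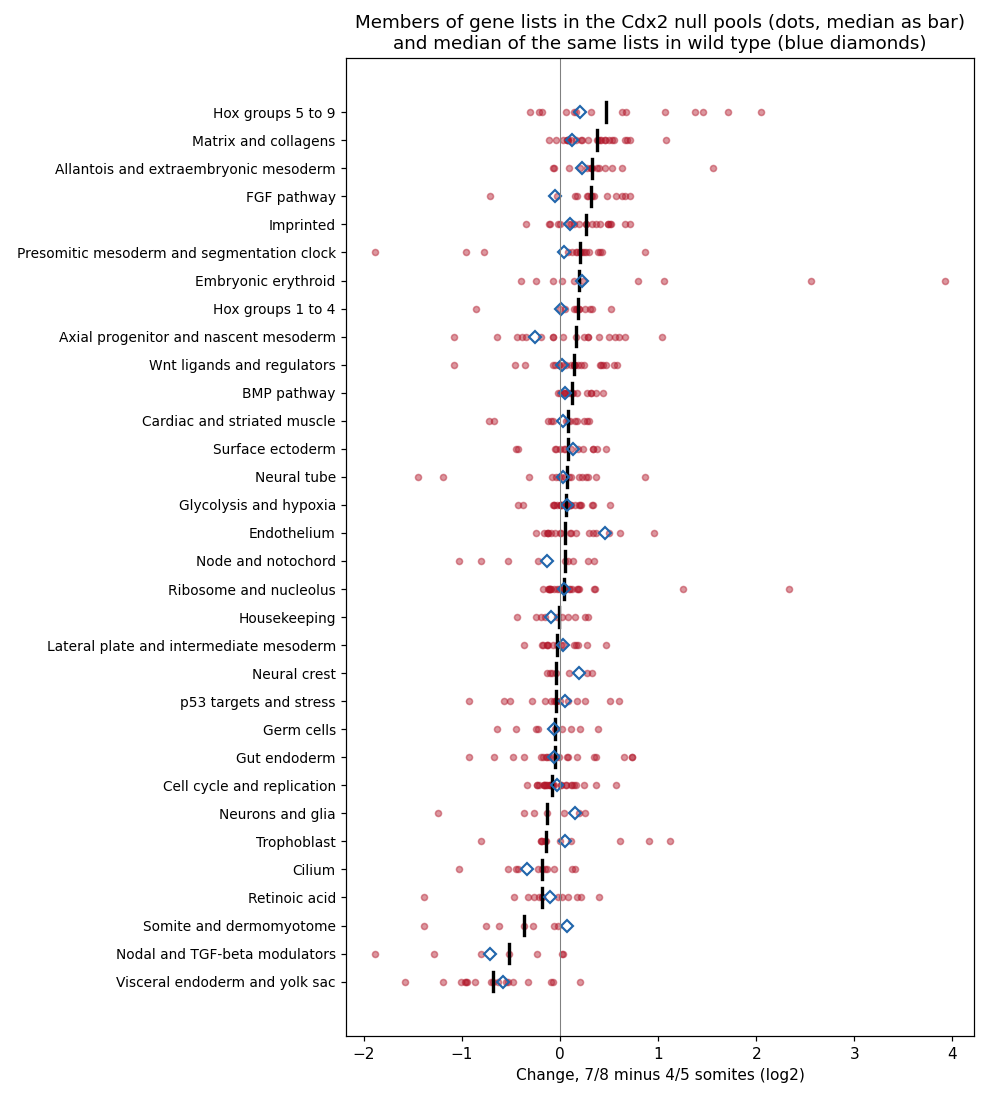
Stage change (log2) in the null pools of the measured members of each gene list (dots, median as black bar) and the list's median in wild type (blue diamond). Medians run from -0.68 for visceral endoderm to 0.47 for Hox groups 5 to 9, and the dot of the ribosome list above 2 is Rpl4, which rests on 1 array.

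The wild type pools were measured on the same arrays. By the same rule 14 of 15205 genes rose in wild type (0.0921%) and 25 fell (0.164%), and at 1.5-fold 111 rose (0.73%) and 124 fell (0.816%). Of the rises, 5 were shared, which is 25% of those in the null pools and 35.7% of those in wild type. Of the falls, 13 were shared, 52% of either list. Among the 13 is Htra1, whose spot was dim in both channels of array 4 of 7/8 somites. With the median of the arrays it changed by -0.46 in the null pools and by -0.98 in wild type, under 2-fold in both. At 1.5-fold 48 rises and 72 falls were shared (34.3% and 50% of the null lists). Both pools of a stage share arrays, and the calls are not independent. Of the 40 null changes that did not rest on 1 array, 38 had the same sign in wild type, Ncl and Afp being the others. The opposite signs of Ncl depend on the probe, as given below. Genes past 2-fold in wild type alone included Nodal, Lefty1, Trh and 3100002J23Rik downward and Emcn, Cox17, Rprm, Limch1 and Fam181b upward. Their null changes were -0.81, -0.52, -0.93, -0.91, 0.96, 0.90, 0.28, 0.71 and 0.61, of which all but Lefty1 and Rprm passed 1.5-fold. A second Cox17 probe gave 0.15. The falls of Nrbf2 and Snx3 in wild type rested on 1 array.

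The stage change differed at least 2-fold between genotypes in 8 of 15490 genes, taken as null minus wild type with its sign. It was higher in the null pools in 2 (0.0129%) and lower in 6 (0.0387%). The higher ones were Ncl (1.58) and Prl2c5 (1.18). For Ncl this depends on the probe. An overlapping probe changed by 1.27 in the null pools and by -0.27 in wild type. The probes elsewhere in Ncl changed by 0.02 and 0.10 in the null pools and by 0.05 and 0.24 in wild type. The second Prl2c5 probe changed by 0.50 in the null pools and by -0.11 in wild type. The higher ones numbered 4 to 6 without any 1 of arrays 1, 2 and 3 of 4/5 somites and arrays 2, 3 and 4 of 7/8 somites. The lower ones with a symbol were Lrrn3 (-1.30), Afp (-1.30), Rmrp (-1.28), Cer1 (-1.17) and Dusp16 (-1.12). Lrrn3, a leucine-rich repeat protein of the cell surface, went from 6.48 ± 0.07 to 8.22 ± 0.11 in wild type, while in the null pools it stood at 6.45, 6.35, 6.21 and 6.39 and then at 6.81, 6.83, 6.74 and 6.82, not well above background on any array at 4/5 somites. Rmrp, the RNA of an RNA-processing particle, changed by -0.78 ± 0.15 in the null pools and by 0.50 ± 0.13 in wild type. Dusp16, a phosphatase acting on MAP kinases, changed by -0.28 ± 0.15 and 0.84 ± 0.19.

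**Figure D5:**
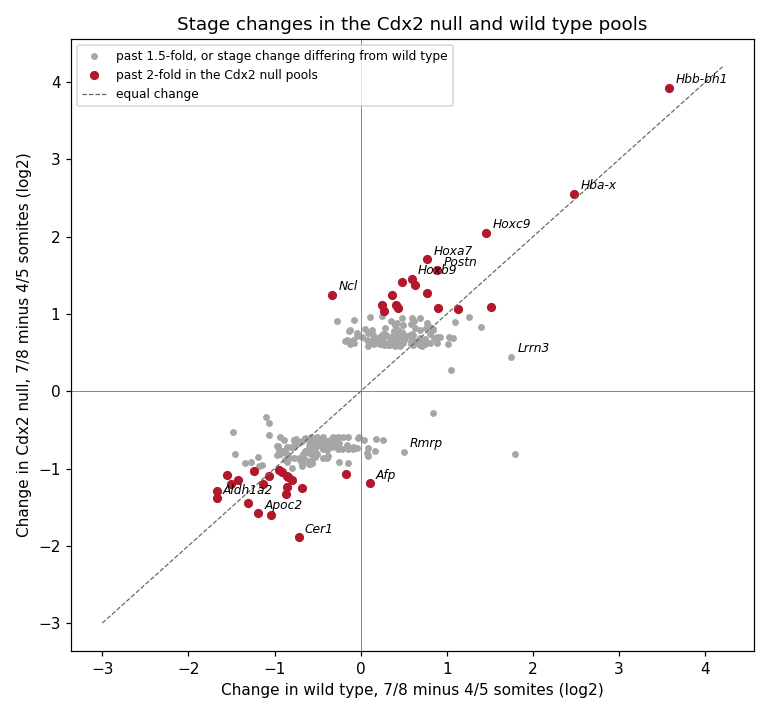
Stage change (log2) in the null pools (vertical) against wild type (horizontal), without genes that rest on 1 array. Shown are genes past 1.5-fold in the null pools, past 2-fold in wild type, or differing 2-fold between genotypes. Red marks genes past 2-fold in the null pools. Hbb-bh1 and Hba-x lie near the line of equal change, Hoxc9 and Hoxa7 above it, and Afp and Cer1 below it.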

How the data were processed

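Messenger RNA of 4 pools (2 genotypes at 2 stages, 20 embryos each) was hybridized in 2 colours to 8 Agilent arrays of 45018 spots. Per the file headers, the deposited mean and background signals are intensity values from the scanner software without normalization, and its processed signals are background-subtracted and dye-normalized intensity values. The deposited value table holds log10 ratios, which equalled the scanner's, turned to null over wild type, at all spots (tolerance 1e-05), with a median of 0. Version 9.5.3 of Agilent Feature Extraction stands in the submitters' processing notes, and version 10.5.1.1 per the file headers.

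Signals were corrected with normexp (offset 50), normalized by loess within and Aquantile between arrays in limma 3.58.1 (R 4.3.3), and split into channels. Before that, 159 spots with uneven local background, up to 103636, received their array's median. Outlier spots (1184, 0.341%) were left out, and no spot was saturated. Of 41174 probes, 25097 were named through RefSeq accessions (GRCm38.p6), and others by the files' names. The brightest of a gene's probes stood for it. Genes well above background in the null channel on at least 3 of 4 arrays of a stage were measured, 14934 in all. Slides and dyes are balanced over stages, and each array of one stage was matched to the array of the other with its slide and dye.

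No test was run, since each stage was 1 pool. The script that applies the size rule was tested on simulated data. The members, gene lists and size rule were chosen with earlier results of these data known. Named genes are the Cdx genes, the 20 largest rises and 20 largest falls with a symbol, up to 4 genes per list with the largest change, and the 6 largest each way that differed between genotypes or passed in wild type alone. Some genes that this rule names are not reported here. Further genes of a list were named after their values were seen. Alternatives covered background, normalization, filter, probe choice, fold size, slide, dye, single arrays and the matching.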

Additional observations from a re-analysis of the deposited data

Results flagged for a closer look

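Among the 286 sets of 4 null channel arrays behind the genes given above, 1 array lay far from the other 3 in 17. In 8 of these genes the spot was far dimmer, and it was so in the wild type channel of that array as well. On array 3 of 4/5 somites Rpl4 was at 5.70 against 13.33 to 13.52 on the others, Cdkn2aipnl at 5.76 against 10.28 to 10.43, and Hoxa4 at 5.90 against 7.42 to 7.68. On array 4 of 7/8 somites Htra1 was at 5.85 against 10.65 to 10.85, Tox4 at 7.40 against 11.40 to 11.52, Nrbf2 at 6.33 against 10.05 to 10.23, and Snx3 at 7.12 against 11.11 to 11.43. On array 3 of 7/8 somites BB112919, the expressed sequence without a symbol, was at 5.82 against 8.98 to 9.04.

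In the other 9 the gap was below 1 on the log2 scale. At 4/5 somites Hbb-bh1 was at 7.81 against 7.98 to 8.00, Hbb-y at 7.08 against 6.88 to 6.90, Gfra3 at 11.02 against 11.29 to 11.32, Afp at 12.24 against 12.14 to 12.15, Hoxb8 at 7.18 against 6.70 to 6.74, and Spink1 at 13.31 against 13.63 to 13.69. At 7/8 somites Limch1 was at 9.30 against 9.06 to 9.07, Pcdh8 at 8.65 against 8.49 to 8.52, and Sox7 at 7.70 against 7.47 to 7.51. The critical value of Dixon's test used here is set so that chance flags about 1 in 20 such sets.

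In 16 of these genes each of the 4 matched array pairs moved one way in the null pools and the other way in wild type, and the difference between the genotypes was not tested. The null change minus the wild type change, on the brightest probe of each gene, was 1.58 for Ncl, 1.18 for Prl2c5, 0.81 for Etv4, 0.78 for Msx1, 0.76 for Fn1, 0.66 for Evx1, 0.57 for Hoxb6, 0.55 for T and 0.53 for Tbx6. A second Hoxb6 probe changed by 0.06 in the null pools and by 0.13 in wild type, so that its opposite directions depend on the probe. Those of Ncl and Msx1 do too, by the other probes given above. The same difference was -1.30 for Afp, -1.28 for Rmrp, -1.12 for Dusp16, -0.89 for Tcf15, -0.80 for Foxc2, -0.66 for Sox7 and -0.54 for Pax6.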

How the results depend on the processing

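The counts of null rises and falls (20 and 25) lay within 1.5 times of the main counts under no background correction, uneven backgrounds kept, centring each array on its median intensity in place of Aquantile, quantile over 16 channels, no filter, a stricter filter, the mean of a gene's probes, slide 1 alone, and the median of the arrays (chosen after seeing the data, which gave 19 and 25). Matching arrays by slide and dye as a replicate block gave 21 rises and 27 falls. Of the 45 calls, 32 were kept with uneven backgrounds kept, 33 without background correction, 34 with the mean of a gene's probes, 35 on slide 1 alone, 38 with the null pool in Cy5 alone, and 39 to 45 under each other setting. The scanner's processed signals, which carry no offset, gave 71 rises and 111 falls in the null pools, 65 and 97 in wild type, and 30 higher and 56 lower stage changes in the null pools than in wild type, and the median of Hox groups 5 to 9 was 1.04. At 1.5-fold the counts were 140 and 144 in the null pools, 111 and 124 in wild type, and 93 and 63 for the difference. Slide 2 alone gave 33 rises and 39 falls in the null pools and 23 and 42 in wild type. With the null pool in Cy3 alone there were 33 null and 38 wild type rises, and with it in Cy5 alone 45 null and 41 wild type falls. Wild type rises were 9 without background correction. The genes with a higher stage change in the null pools, 2 in the main setting, were 1 without background correction, 5 with uneven backgrounds kept and 0 with the mean of a gene's probes. The deposited ratios, added after seeing the data, gave 31 higher and 53 lower. Leaving out 1 array gave 19 to 23 null rises, 22 to 32 null falls, 13 to 17 wild type rises, 21 to 30 wild type falls, 2 to 6 higher and 6 to 8 lower stage changes. No named gene that passed 2-fold in the null pools changed sign under any of these settings. The cause of these shifts was not tested, apart from fewer arrays or a smaller fold size, which loosen the rule. Differences of dim probes, Hba-x at 4/5 somites among them, are limited by signal over background.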
